A study of Mus musculus with 2 samples.

Results

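Among cells sorted from the mouse pallium at postnatal day 3, a group of GABAergic cells with transcripts of Sp8 was taken as candidate olfactory bulb neuroblasts. The cells were chosen by the unique molecular identifier (UMI) counts of 10 genes in each barcode. A barcode needed at least 1 UMI of Sp8 and at least 1 UMI of Gad1 or Gad2. It could hold no UMI of Adarb2, Mki67, Top2a, Lhx6 or Pdgfra, and not both Tshz1 and Pbx3. This gave 350 of 22193 barcodes that had at least 500 detected genes and at most 10% mitochondrial UMIs. They were 169 in replicate 1, or 1.51% of its barcodes (exact Clopper-Pearson 95% interval 1.29% to 1.75%), and 181 in replicate 2, or 1.65% (1.42% to 1.91%). The mean share was 1.58% ± 0.103 (SD, n = 2). These intervals, like all shares of cells below, cover counting error only.

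Sp8 is a zinc-finger transcription factor of the Sp family, and Gad1 and Gad2 encode the enzymes that make the neurotransmitter GABA. Neuroblasts of the olfactory bulb are young GABAergic neurons that arise from progenitors of the lateral ganglionic eminence and septum, later the ventricular-subventricular zone. They travel through the rostral migratory stream and settle in the bulb as granule or periglomerular interneurons. Members of the Dlx homeobox family, Sp8 with its close relative Sp9, and later Etv1, Meis2 and Pax6 mark steps of this path. Interneurons of the caudal ganglionic eminence (CGE), many of which carry Adarb2 and some Sp8, go to the cerebral cortex instead.

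Both libraries came from wild-type mice and form a single group, with no control or treated arm. EdU, a thymidine analogue taken up by DNA during replication, had been given at embryonic day 12. The dissected pallial tissue of the day 3 brains was pooled. Some of the cells sorted from it held Mki67 or Top2a, so the label is not read here as a date of birth. Live (PI-negative) EdU-positive cells were sorted if they lay within the brightest 10%, and their transcripts were counted with droplet-based 3' sequencing. The labels do not say whether replicates 1 and 2 came from separate pools of animals. The p-values below therefore measure the spread between these libraries, which may be technical. Since the tissue was pooled, the position of a cell in the brain was not recorded.

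The libraries held 13858 and 14513 barcodes with 97091962 and 108903409 UMIs in replicates 1 and 2, and values are given in that order throughout. Scrublet marked 9 of the 169 and 8 of the 181 Sp8 neuroblasts as doublets (5.33% and 4.42%), against 7.68% and 7.10% of all barcodes that passed the limits. These were kept. Of the passing barcodes, 40 had a barcode sequence found in both libraries. No barcode belonged to the Sp8 neuroblasts of both, and 1 neuroblast barcode was among the passing barcodes of the other library.

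The Sp8 neuroblasts had a median of 5661 and 6066 UMIs and of 2297 and 2467 detected genes, and their summed counts came to 962819 and 1163254 UMIs. Because the sums are unequal in size, levels are given as CPM, the UMIs of a gene per 1000000 UMIs of the sum. The rule kept 350 of the 1806 passing barcodes that held Sp8 with Gad1 or Gad2. Sp8 itself stood at 405 and 403 CPM in the neuroblasts and at 10.5 and 11.7 CPM in the barcodes outside the named classes. That gap is set by the choice of cells and is no result. Many cells lay close to the limit that defined them: 60 and 59 of them held a single Sp8 UMI, 50 and 45 held 2, and 59 and 77 held 3 or more.

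Other classes were set beside the neuroblasts. CGE-like cells had at least 2 UMIs of Adarb2 and 1 of Gad1 or Gad2, and they numbered 292 and 317. Of these, 116 and 158 held both Tshz1 and Pbx3, 66 and 104 held Mki67 or Top2a, and 61 and 65 held Pdgfra, all of which the rule for the neuroblasts bars. A stricter class of 107 and 84 cells also met the neuroblasts' conditions on Mki67, Top2a, Lhx6, Pdgfra and Tshz1 with Pbx3. It needed no UMI of Sp8 and is called restricted CGE-like. It was chosen after seeing the data. Tshz1/Pbx3 cells, 72 and 90 in number, met the conditions on GABA synthesis, Adarb2, proliferation, Lhx6 and Pdgfra but held both Tshz1 and Pbx3. The remaining barcodes, 10351 and 10065, were the rest of the sorted cells, mostly glia and other neurons, once a class of dividing GABAergic cells (344 and 312) had been set apart. Median UMIs per cell were 5417.5 and 6342 in CGE-like, 4465 and 4761 in restricted CGE-like, and 4525 and 5882.5 in Tshz1/Pbx3 cells. These classes hold Sp8 as well. It had a UMI in 51.7% and 54.3% of CGE-like, 43.0% and 40.5% of restricted CGE-like and 45.8% and 32.2% of Tshz1/Pbx3 cells. In dividing GABAergic cells the share was 78.5% and 82.7%.

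Differences between classes were tested with edgeR's quasi-likelihood test on the summed counts, with the library as a block, and a gene was called at a Benjamini-Hochberg adjusted p under 0.05 over all genes tested. Every comparison uses the same neuroblast sums, so the comparisons are not independent of each other. The 10 genes of the rule were not tested. Other genes that go with them in the same cells follow from the choice of cells. Examples are further CGE genes with Adarb2, mitotic genes with Mki67, and Sp9 or Dlx genes with Sp8. Their calls describe the classes without supporting them. Only the neuroblasts had to hold Sp8, and its part in the values of Sp9 and the Dlx genes was not tested. Against CGE-like cells, 952 of 12043 genes were higher in the Sp8 neuroblasts (7.91%) and 1100 lower (9.13%). Against restricted CGE-like cells, 317 of 10375 were higher (3.06%) and 398 lower (3.84%). Against Tshz1/Pbx3 cells, 491 of 12043 were higher (4.08%) and 636 lower (5.28%). Against the rest, 2684 were higher (22.3%) and 3041 lower (25.3%). The list counts below are to be read beside these shares over all genes. When the rule was applied to cells thinned to 2000 UMIs each, the calls fell to 400, 251, 78 and 2256 in these 4 comparisons. Thinning lowers depth and also changes which cells each class holds, so its results do not tell depth from membership. Where a call given below with its values ended there, this is stated beside it, and some genes were too low to be tested there.

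The markers fixed for the label, other than those of the rule, stood well above the rest of the sorted cells. Dlx5 was at 350 ± 14.5 CPM (SD, n = 2) in the Sp8 neuroblasts and at 14.7 and 14.3 CPM in the rest, a log2 difference of 4.80 ± 0.10 (SE; edgeR adjusted p = 5.55e-21). Dcx, a microtubule-associated protein of migrating neurons, was at 558 and 736 CPM against 154 and 193 CPM, a log2 difference of 2.11. Of the 10 markers tested, which include Dlx1, Dlx2, Dlx5, Sp9, Meis2, Etv1, Dcx, Cd24a and Prokr2, all 10 passed as higher than in the rest. Prokr2, the receptor for prokineticin 2 on neuroblasts bound for the bulb, was low at 31.2 and 24.1 CPM, against 3.52 and 3.72 CPM in the rest (3.12 ± 0.35, adjusted p = 9.79e-08). Against CGE-like cells the same gene was lower, at 60.3 and 68.1 CPM there (−1.12, adjusted p = 0.00654), a call lost without neuroblast replicate 2 (−0.93, adjusted p = 0.17), without CGE-like replicate 2 (−0.96, adjusted p = 0.068) or with thinned cells (−1.16, adjusted p = 0.0937). The markers thus set the cells apart from the rest, a class without the dividing GABAergic cells. In single cells after thinning, Dlx1 was found in 73.4% and 73.2% of dividing GABAergic cells and 70.5% and 76.3% of the neuroblasts. Etv1 was found in 45.8% and 40.8% against 37.6% and 37.9%. Cd24a was less frequent in dividing cells, at 66.5% and 69.6% against 81.9% and 82.8%. Prokr2 was found in 1.20% and 1.63% of these, 6.04% and 7.69% of the neuroblasts and 21.3% and 10.1% of Tshz1/Pbx3 cells. These shares were not tested. Dcx (0.11, adjusted p = 0.311) and Etv1 (0.28, adjusted p = 0.0526) did not pass against CGE-like cells. With thinned cells both did, Etv1 as higher (0.91, adjusted p = 0.00209) and Dcx as lower (−0.44, adjusted p = 0.0139).

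The transcription factors of bulb neuroblasts that rose furthest above the rest include Sp9, Dlx1 and Dlx2, whose genes lie on chromosome 2. Sp9 lies at chr2:73271925-73284706 on the plus strand of GRCm38, Dlx1 at chr2:71528113-71533981 on the plus strand, and Dlx2 at chr2:71543408-71546754 on the minus strand, next to Dlx1. Their promoters are shown because these genes were higher together in the Sp8 neuroblasts, and Sp family proteins are known to bind GC boxes. Each sequence holds the 250 bases before the RefSeq start on GRCm38.p6, written 5′ to 3′ on the strand of the gene, with capitals for a match to GGGCGG on either strand. The windows are chr2:73271676-73271925 on the plus strand for Sp9, chr2:71529195-71529444 on the plus strand for Dlx1 and chr2:71546755-71547004 on the minus strand for Dlx2. The gene spans above and the RefSeq starts come from different annotations. For Dlx1 the window lies inside the gene span given, so it does not cover the bases before that span.
Sp9: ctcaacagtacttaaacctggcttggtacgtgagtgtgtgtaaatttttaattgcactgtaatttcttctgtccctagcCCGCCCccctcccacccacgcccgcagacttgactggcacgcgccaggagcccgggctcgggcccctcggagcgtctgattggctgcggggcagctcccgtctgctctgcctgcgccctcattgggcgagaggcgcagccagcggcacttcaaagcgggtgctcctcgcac
Dlx1: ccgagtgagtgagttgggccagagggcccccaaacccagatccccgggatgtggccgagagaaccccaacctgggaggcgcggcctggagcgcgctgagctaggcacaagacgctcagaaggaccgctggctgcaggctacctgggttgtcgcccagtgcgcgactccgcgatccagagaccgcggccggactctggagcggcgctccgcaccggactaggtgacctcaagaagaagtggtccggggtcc
Dlx2: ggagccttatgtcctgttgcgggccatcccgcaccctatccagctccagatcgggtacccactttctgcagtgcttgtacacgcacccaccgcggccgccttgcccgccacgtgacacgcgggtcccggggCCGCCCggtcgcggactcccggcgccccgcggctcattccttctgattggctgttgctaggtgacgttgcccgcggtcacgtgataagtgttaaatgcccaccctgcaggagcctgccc
The motif occurs 1 time in the Sp9 window, 1 time in the Dlx2 window and 0 times in the Dlx1 window. It occurs in 32.7% of the 32851 promoter windows of the same length in the RefSeq table, so a match describes the letters and no binding site.

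Of the 20 bulb neuroblast transcription factors fixed as a list, 11 were higher and 3 lower than in CGE-like cells, and the list's median log2 difference was 0.31 against −0.02 over all genes tested. With thinned cells 6 were higher and 2 lower, of which 5 and 1 were the same calls. Unlike CGE-like cells, the neuroblasts had to hold Sp8, so these counts describe the classes without supporting the label. Sp9 stood at 722 and 662 CPM in the Sp8 neuroblasts, 451 and 496 CPM in CGE-like cells and 331 and 193 CPM in Tshz1/Pbx3 cells. The ranges of the libraries did not overlap, and the log2 differences were 0.66 ± 0.10 (adjusted p = 3.61e-05) and 1.58 ± 0.15 (adjusted p = 1.65e-07). Dlx2 was at 482 and 446 CPM in the neuroblasts, 293 and 302 CPM in CGE-like and 249.8 and 153 CPM in Tshz1/Pbx3 cells. Dlx1 differed less, with 748 CPM in both replicates against 542 and 609 CPM in CGE-like cells, a log2 difference of 0.50. With thinned cells, the calls of Sp9 and Dlx2 against CGE-like cells held and that of Dlx1 ended (0.32, adjusted p = 0.14), as did those of Dlx1 and Dlx2 against Tshz1/Pbx3 cells (0.32, adjusted p = 0.48, and 0.38, adjusted p = 0.49). Dlx1 and Sp9 each overlap another gene model (Dlx1as and Cir1), and the sources used here do not state how strand was treated in counting.

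Against restricted CGE-like cells, from which dividing cells had been taken out, 8 of 19 of these factors were higher and 2 lower (median 0.11, against 0.01 over all genes). With thinned cells 4 of these 8 calls and neither of the 2 held. Etv1, an ETS factor of bulb interneurons, was at 294 and 291 CPM in the neuroblasts and at 112 and 136 CPM there, a log2 difference of 1.30 ± 0.16 (adjusted p = 5.99e-06). Pax6, a paired-box factor of periglomerular and superficial granule neurons, was at 209.8 and 222 CPM against 74 and 88.2 CPM (1.50 ± 0.19, adjusted p = 1.31e-05), a call that ended with thinned cells (0.95, adjusted p = 0.15). Meis2, a homeobox cofactor, was at 1769 and 1793 CPM against 1009 and 1245 CPM (0.73 ± 0.10, adjusted p = 2.86e-05). In the full CGE-like class Meis2 reached 1541 and 1633 CPM, a log2 difference of 0.29 that was called (adjusted p = 0.00356). That call was lost when doublets were left out (0.11, adjusted p = 0.44), with thinned cells (0.0123, adjusted p = 0.966), when the library block was left out (adjusted p = 0.075), or when any 1 sum was left out (0.25 to 0.32, adjusted p 0.08 to 0.16). Sp9 was 0.65 higher than in restricted CGE-like cells, but without neuroblast replicate 1 (0.53, adjusted p = 0.061), without restricted CGE-like replicate 1 (0.58, adjusted p = 0.063) or with thinned cells (0.37, adjusted p = 0.251) this was not called. Dlx2, 0.61 higher, was not called without restricted CGE-like replicate 1 (0.46, adjusted p = 0.15) or with thinned cells (0.44, adjusted p = 0.251). Dlx5 missed the threshold there (0.36, adjusted p = 0.101). In Tshz1/Pbx3 cells Meis2 was at 2099 and 1933 CPM, which did not pass (−0.06, adjusted p = 0.703) but was called as lower in the neuroblasts with thinned cells (−0.55, adjusted p = 1.94e-05).

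Foxp2, a forkhead factor, went the other way within the same list. It stood at 21.8 and 14.6 CPM in the Sp8 neuroblasts, 88.4 and 119 CPM in CGE-like cells and 174 and 92.5 CPM in Tshz1/Pbx3 cells. The log2 differences were −2.44 ± 0.27 (adjusted p = 6.6e-07) and −2.70 ± 0.34 (adjusted p = 7.55e-06), and both calls held with thinned cells. In restricted CGE-like cells it was at 40.2 and 74.8 CPM (−1.58, adjusted p = 0.0265), which was not called without neuroblast replicate 2 (−1.22, adjusted p = 0.26), without restricted CGE-like replicate 2 (−1.13, adjusted p = 0.36) or with thinned cells (−1.56, adjusted p = 0.0829). Tshz2, a zinc-finger homeobox factor, was at 21.8 and 24.1 CPM against 49.1 and 62.6 CPM in CGE-like cells (−1.18 ± 0.21, adjusted p = 0.000316), not called with thinned cells (−0.39, adjusted p = 0.74).

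**Figure D1:**
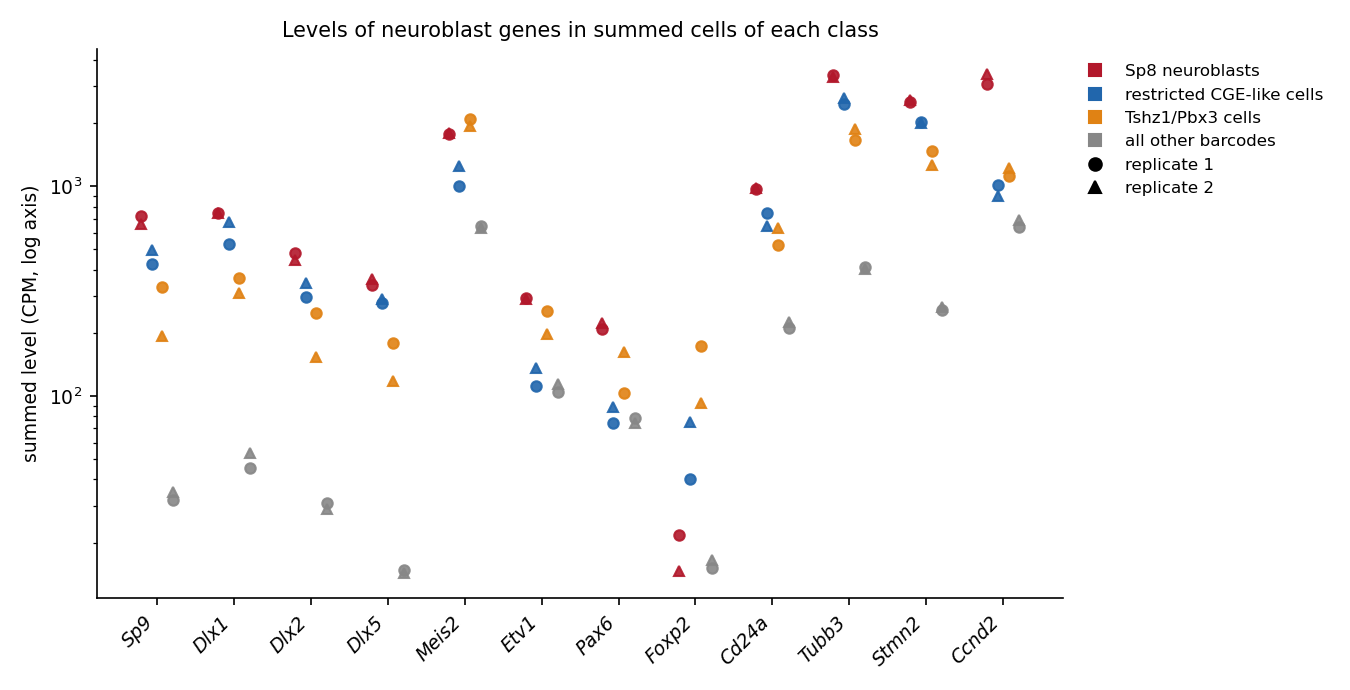
Levels in CPM, on a log axis, of transcription factors and immature neuron genes in each class, with a circle for replicate 1 and a triangle for replicate 2. Sp9 lies at 722 and 662 CPM in the Sp8 neuroblasts, above every comparison class, while Foxp2 lies at 21.8 and 14.6 CPM, below restricted CGE-like and Tshz1/Pbx3 cells.

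Genes of immature, migrating neuroblasts were the second group to stand higher. Against Tshz1/Pbx3 cells 13 of 16 were higher and none lower, with a median log2 difference of 0.53. Against CGE-like cells 7 were higher and none lower (median 0.23), and against restricted CGE-like cells 4 were higher and 2 lower (median −0.07). With thinned cells only 1 of the 13 calls held, and against CGE-like cells 4 of the 7. There the calls of Dpysl3 (−0.0352, adjusted p = 0.919), Marcksl1 (0.24, adjusted p = 0.176) and Crmp1 (0.24, adjusted p = 0.455) ended, and Dcx was called as lower. Against restricted CGE-like cells all 4 higher calls held and neither of the 2 lower ones did. Tubb3, the neuronal beta-tubulin, was at 3403 and 3306 CPM in the Sp8 neuroblasts, 2029 and 1850.0 CPM in CGE-like cells, 2477 and 2637 CPM in restricted CGE-like cells and 1663 and 1883 CPM in Tshz1/Pbx3 cells. No value of another class reached those of the neuroblasts, and the differences were 0.91 ± 0.07 (adjusted p = 7.25e-10), 0.46 ± 0.08 (adjusted p = 0.000947) and 1.02 ± 0.08 (adjusted p = 4.4e-09). Cd24a, a surface glycoprotein used to sort neuroblasts, was at 973 and 979 CPM against 572 and 596, 747 and 644, and 526 and 633 CPM in the same classes. Its differences were 0.86, 0.54 and 0.85, of which the last was not called with thinned cells (0.07, adjusted p = 0.92). Stmn2, a microtubule-destabilising protein of growing neurites, was at 2529 and 2593 CPM against 1687 and 1639 CPM in CGE-like cells (0.74 ± 0.06, adjusted p = 1.21e-08). Igfbpl1 was at 1575 and 1602 CPM against 1016 and 953 CPM there (0.81 ± 0.09, adjusted p = 4.8e-07). The genes in this list that were lower than in restricted CGE-like cells were Nrep (−0.58; without neuroblast replicate 2 −0.48, adjusted p = 0.057; without restricted CGE-like replicate 1 −0.47, adjusted p = 0.07) and St8sia2, a polysialyltransferase that modifies Ncam1 (−0.68; without neuroblast replicate 1 or 2 adjusted p = 0.066 and 0.081; without restricted CGE-like replicate 2 −0.50, adjusted p = 0.26). Dcx did not separate the neuroblasts from restricted CGE-like cells (607 and 882 CPM there, −0.13, adjusted p = 0.414).

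Ligands and receptors of tangential migration were lower than in CGE-like, restricted CGE-like and Tshz1/Pbx3 cells or did not pass, while against the rest 11 of 30 were higher and 12 lower. None of the 30 tested of the 34 in the list was higher than in CGE-like cells and 7 were lower, with a median of −0.56. With thinned cells 3 of these 7 calls held. Erbb4, the neuregulin receptor of migrating interneurons, was at 33.2 and 26.6 CPM in the Sp8 neuroblasts, 157 and 146 CPM in CGE-like cells, 228 and 291 CPM in restricted CGE-like cells and 105 and 70.7 CPM in Tshz1/Pbx3 cells. The neuroblasts lay below every one of these values, by −2.23 ± 0.18 (adjusted p = 3.66e-09), −3.06 ± 0.21 (adjusted p = 3.41e-10) and −1.40 ± 0.26 (adjusted p = 0.00104). With thinned cells the last was not called (−1.09, adjusted p = 0.32). Robo1, a receptor for Slit repellents, was at 12.5 and 12.9 CPM against 38.8 and 47.9 CPM in CGE-like cells (−1.67 ± 0.29, adjusted p = 0.000276), a call that thinning ended (−1.37, adjusted p = 0.17). Vldlr, a Reelin receptor, was at 20.8 and 13.8 CPM against 50.6 and 51.9 CPM (−1.48 ± 0.25, adjusted p = 0.000199). Plxna4, a semaphorin coreceptor, was at 42.6 and 66.2 CPM against 141 and 156 CPM (−1.31 ± 0.14, adjusted p = 3.19e-07). Against restricted CGE-like cells, 5 of 25 were lower and none higher (median −0.30).

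Compared with Tshz1/Pbx3 cells, 7 of 30 migration genes were lower and none higher (median −0.46), and none of the 7 calls held with thinned cells. Unc5d, a netrin receptor, was at 6.23 and 17.2 CPM in the Sp8 neuroblasts and 39.2 and 85.8 CPM there (−2.32 ± 0.35, adjusted p = 9.62e-05). Sema3c, a secreted semaphorin, was at 15.6 and 18.9 CPM against 51.4 and 89.2 CPM (−1.96 ± 0.30, adjusted p = 0.000122). Neither was called with thinned cells (adjusted p = 0.45 and 0.67).

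Genes of CGE interneurons other than Adarb2 were lower for the most part. Of 17 tested, 9 were lower and 2 higher than in CGE-like cells (median −0.89), and 9 of 16 were lower and none higher than in restricted CGE-like cells (median −1.33). With thinned cells 4 and 3 of these lower calls held. Cnr1, the cannabinoid receptor of CCK interneurons, was at 16.6 and 29.2 CPM in the Sp8 neuroblasts and 118 and 95.4 CPM in CGE-like cells (−2.04 ± 0.21, adjusted p = 2.04e-07). Npas1, a bHLH-PAS factor, was at 4.15 and 5.16 CPM against 32.2 and 37.2 CPM (−2.78 ± 0.37, adjusted p = 8.89e-06). Col19a1 and Kit, also far below CGE-like cells (−3.31 and −2.60), were at 1.04 CPM or less in the neuroblasts, and DESeq2 did not call them (adjusted p = 0.11 and 0.097). The genes that were higher were Synpr, described with the subtype genes below, and Htr3a. Htr3a, the serotonin receptor channel of CGE interneurons, was at 44.7 and 43.8 CPM in the neuroblasts against 30.7 and 22.8 CPM in CGE-like cells (0.87 ± 0.26, adjusted p = 0.0209). That call was lost without neuroblast replicate 1 (adjusted p = 0.14), without neuroblast replicate 2 (adjusted p = 0.25), without CGE-like replicate 2 (0.64, adjusted p = 0.28) and without doublets (0.71, adjusted p = 0.07), and the sign changed with thinned cells (−0.31). It did not pass against 63.4 and 61.4 CPM in restricted CGE-like cells (−0.44, adjusted p = 0.465).

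Prox1, a homeobox factor of CGE interneurons, divided the neuroblasts from both like classes in opposite directions. It stood at 61.3 and 43 CPM in the Sp8 neuroblasts, 127 and 155 CPM in restricted CGE-like cells and 7.35 and 16.8 CPM in Tshz1/Pbx3 cells. The differences were −1.39 ± 0.22 (adjusted p = 0.000172) and 2.10 ± 0.40 (adjusted p = 0.00104), and neither was called with thinned cells (−0.88, adjusted p = 0.49, and 0.12, adjusted p = 0.98). In the full CGE-like class it was at 70 and 65.2 CPM (−0.27, adjusted p = 0.359). Of the MGE interneuron genes tested against CGE-like cells, 1 of 10 was higher and 3 were lower (median −0.38). Over all genes tested, 7.91% were higher and 9.13% lower. Maf, a leucine zipper factor of cortical interneurons, was at 2.08 and 6.88 CPM in the neuroblasts against 63.9 and 37.9 CPM (−3.26 ± 0.44, adjusted p = 1.11e-05).

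Genes of striatal projection neurons were lower than in Tshz1/Pbx3 cells in 7 of 10 tested and higher in none (median −2.33), and 1 of these calls held with thinned cells. Foxp2 belongs to this list too. Bcl11b, a zinc-finger factor of striatal and deep cortical neurons, was at 92.4 and 95.4 CPM in the Sp8 neuroblasts and 164 and 207 CPM in Tshz1/Pbx3 cells (−0.89 ± 0.15, adjusted p = 0.000234; with thinned cells −0.90, adjusted p = 0.2). Against CGE-like cells 4 of 10 were lower and none higher (median −1.01). Glutamatergic neuron markers summed to 213 and 577 CPM in Tshz1/Pbx3 cells and to 92.4 and 99.7 CPM in the neuroblasts. Of the 9 such markers tested, 5 were lower in the neuroblasts and 0 higher (median −2.03), and 0 of these calls held with thinned cells. Their part in the differences from Tshz1/Pbx3 cells was not tested.

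Among genes of synaptic signalling, those that passed against CGE-like cells were lower in the Sp8 neuroblasts with 1 exception, although in 3 of the 4 lists most members did not pass. Of glutamate receptor genes 11 of 17 were lower and none higher (median −0.90). Of GABA synthesis, release and receptor genes other than Gad1 and Gad2, 5 of 16 were lower and none higher (median −0.76). Voltage-gated channels had 9 of 27 lower and none higher (median −1.05), and synaptic vesicle and synapse genes had 10 of 28 lower and 1 higher (median −0.40). With thinned cells 1, 1, 1 and 4 of these lower calls held, and the higher one ended. Against restricted CGE-like cells the counts were 3 of 15, 6 of 15, 4 of 23 and 9 of 28 lower, with 1 synapse gene higher, and medians of −0.88, −0.54, −0.91 and −0.70. Against Tshz1/Pbx3 cells, 6 of 17 glutamate receptor genes and 0 of 16 GABA genes were lower, beside 5.28% of all genes tested.

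Grin2b, an NMDA receptor subunit, was at 55 and 45.6 CPM in the Sp8 neuroblasts and 135 and 163 CPM in restricted CGE-like cells (−1.50 ± 0.20, adjusted p = 1.38e-05). Gabra2, a GABA-A receptor subunit, was at 8.31 and 12.9 CPM against 40.2 and 48.1 CPM (−1.98 ± 0.39, adjusted p = 0.00177). Syt1, the calcium sensor of vesicle release, was at 19.7 and 23.2 CPM against 90.9 and 77.5 CPM (−1.93 ± 0.28, adjusted p = 4.57e-05). Shank1, a postsynaptic scaffold, was at 29.1 and 24.1 CPM against 88.8 and 115 CPM (−1.88 ± 0.26, adjusted p = 2.46e-05). In each of these 4 genes both neuroblast sums lay below both sums of the restricted CGE-like cells, and each call held with thinned cells. Slc32a1, the vesicular GABA transporter, did not differ beyond the threshold, with 51.9 and 67.9 CPM in the neuroblasts and 63.4 and 126 CPM in restricted CGE-like cells (−0.54, adjusted p = 0.252).

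Some of the calls against the full CGE-like class need the glial counts beside them. Gria3, an AMPA receptor subunit, was at 4.15 and 6.02 CPM in the Sp8 neuroblasts against 30.2 and 38.7 CPM (−2.63 ± 0.38, adjusted p = 2.65e-05), and Grin3a, an NMDA receptor subunit, at 4.15 and 5.16 CPM against 26.6 and 32.4 CPM (−2.54 ± 0.38, adjusted p = 4.01e-05). Kcnd2, an A-type potassium channel, was at 6.23 and 9.46 CPM against 41.9 and 58.6 CPM (−2.56 ± 0.27, adjusted p = 2.09e-07). None of the 3 passed against restricted CGE-like cells (adjusted p = 0.507, 0.264 and 0.468) and none was called with thinned cells, where Grin3a and Kcnd2 changed sign (0.17 and 0.50, adjusted p = 0.96 and 0.89). Markers of the oligodendrocyte lineage summed to 469 and 488 CPM in the neuroblasts, 1628 and 1555 CPM in CGE-like cells and 527 and 451 CPM in restricted CGE-like cells, which hold no Pdgfra. Of these 10 markers 8 were lower in the neuroblasts than in CGE-like cells, none of them with thinned cells, and none was called against restricted CGE-like cells. Their part in the receptor and channel values was not tested.

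**Figure D2:**
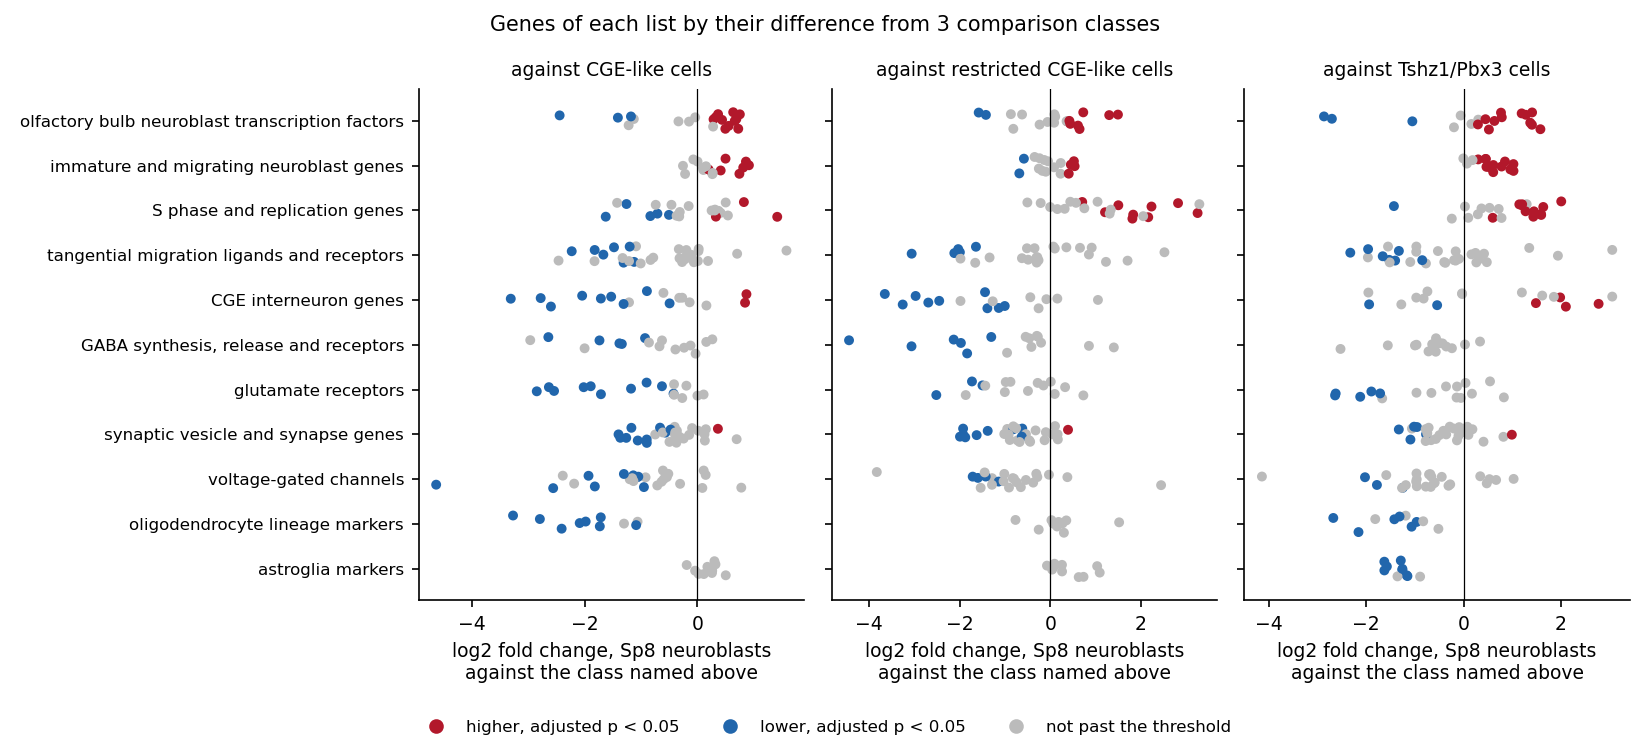
Log2 differences in 3 panels (Sp8 neuroblasts against CGE-like, restricted CGE-like and Tshz1/Pbx3 cells), with 1 dot per gene of 11 lists, red where called higher, blue where called lower and grey otherwise. Genes with no UMI in one of the classes compared are not drawn. Migration, glutamate receptor and channel lists hold no red dot in any panel, while bulb transcription factors hold 11, 8 and 12.

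Transcripts of the G1 cyclin Ccnd2, and of some DNA replication genes, were higher in the Sp8 neuroblasts than in the restricted CGE-like cells. Of the S phase list given below, only the call of Ccnd2 held there with thinned cells. The rule took out cells with Mki67 or Top2a, so low mitotic genes follow from it: Cdk1, the mitotic kinase, was at 4.15 and 4.3 CPM against 112 and 135 CPM in CGE-like cells. Ccnd2, a cyclin of neural progenitors, stood at 3082 and 3427 CPM in the neuroblasts, 1235 and 1419 CPM in CGE-like cells, 1017 and 900.2 CPM in restricted CGE-like cells and 1122 and 1218 CPM in Tshz1/Pbx3 cells. The neuroblasts exceeded each of these by more than the spread between replicates, by 1.42 ± 0.06 (adjusted p = 1.72e-13), 1.82 ± 0.09 (adjusted p = 3.23e-12) and 1.59 ± 0.07 (adjusted p = 6e-13). In the dividing GABAergic cells it was at 2875 and 3163 CPM, with no test of that difference. Ccnd2 lies at chr6:127125162-127152193 on the minus strand of GRCm38 and overlaps 2 other gene models (9330179D12Rik and Gm43126). Ccnd1, the other D-type cyclin named here, was at 27 and 30.9 CPM against 93 and 101 CPM in CGE-like cells (−1.62 ± 0.22, adjusted p = 1.28e-05), which was not called without doublets (−0.75, adjusted p = 0.14) or with thinned cells (−0.31, adjusted p = 0.89).

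Of the 22 S phase and replication genes, 9 were higher and none lower than in restricted CGE-like cells (median 1.26), and 11 were higher and 1 lower than in Tshz1/Pbx3 cells (median 1.17, or 1.03 with genes at 0 set to a floor of 3 counts). Ccnd2 is among the genes higher in both. Against CGE-like cells, of which some divide, 3 were higher and 5 lower (median −0.23), and against the rest 3 were higher and 9 lower (median −0.33). With thinned cells 1 of the 9 and 1 of the 11 calls held, in each case that of Ccnd2. Mcm5, a subunit of the replicative helicase, was at 56.1 and 53.3 CPM in the Sp8 neuroblasts and at 10.6 and 0 CPM in restricted CGE-like cells, a call that ended with thinned cells (adjusted p = 0.297). Mcm3, of the same complex, was at 48.8 and 48.1 CPM against 10.6 and 2.67 CPM (2.82 ± 0.48, adjusted p = 0.000377). Its call ended with thinned cells (2.16, adjusted p = 0.42). After thinning to 2000 UMIs, 14 of 149 (9.40%) and 18 of 169 (10.7%) neuroblasts held at least 5 UMIs over 20 S phase genes. The share was 2 of 78 (2.56%) and 0 of 68 in restricted CGE-like cells, 0 of 61 and 2 of 79 (2.53%) in Tshz1/Pbx3 cells, and 44.0% and 48.0% in dividing GABAergic cells. Replication transcripts at this level were thus found in a minority of the neuroblasts. In CGE-like cells, which may divide, the share was 10.5% in both libraries, and in the rest it was 12.5% and 13.1%, above the neuroblasts.

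**Figure D3:**
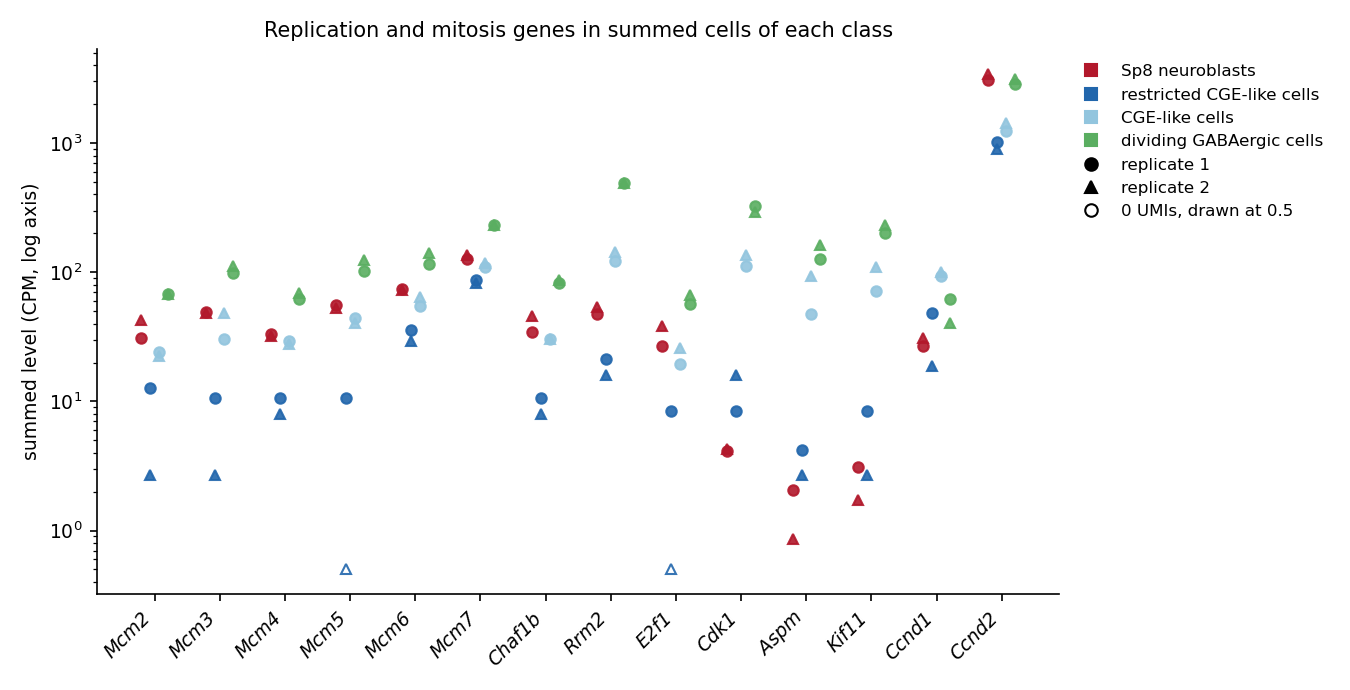
Levels in CPM, on a log axis, of replication, mitosis and D-type cyclin genes in Sp8 neuroblasts, restricted CGE-like, CGE-like and dividing GABAergic cells, with a circle for replicate 1 and a triangle for replicate 2 (open at 0.5 where no UMI was found). Ccnd2 lies at 3082 and 3427 CPM in the neuroblasts, while Cdk1 lies at 4.15 and 4.3 CPM.

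Notch and progenitor genes moved in both directions. Of the 20 in the list, 3 were higher and 3 lower than in CGE-like cells (median −0.09). Vim, the intermediate filament vimentin, was at 484 and 509 CPM in the Sp8 neuroblasts, 404 and 331 CPM in CGE-like cells, 269 and 182 CPM in restricted CGE-like cells and 306 and 225 CPM in Tshz1/Pbx3 cells. Its differences of 0.57, 1.19 and 1.05 were all called, also with thinned cells. Outside that list, Mfng, the manic fringe glycosyltransferase that modifies Notch, was at 125 and 119 CPM in the Sp8 neuroblasts, 28.6 and 37.6 CPM in CGE-like cells, 21.1 and 50.8 CPM in restricted CGE-like cells and 75.9 and 58.9 CPM in Tshz1/Pbx3 cells. It was higher by 1.97 ± 0.16 (adjusted p = 3.26e-09), 1.90 ± 0.27 (adjusted p = 3.19e-05) and 0.99 ± 0.20 (adjusted p = 0.00183). With thinned cells only the first of these calls held (1.36, adjusted p = 0.15, and 1.08, adjusted p = 0.42, for the others).

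Compared with Tshz1/Pbx3 cells, 3 of these 20 genes were higher and 8 lower, of which 1 and 0 held with thinned cells. Id3, an inhibitor of bHLH factors and a target of BMP signalling, was at 178 and 211 CPM in the Sp8 neuroblasts and 1089.7 and 564 CPM there (−1.90 ± 0.17, adjusted p = 7.18e-08). Id2 was at 146 and 231 CPM against 451 and 540.0 CPM (−1.27 ± 0.12, adjusted p = 2.81e-07). Id4 was at 169 and 196 CPM against 122 and 79.1 CPM (1.04 ± 0.18, adjusted p = 0.000328). None of the 3 was called with thinned cells (−0.34, −0.84 and 1.14; adjusted p = 0.81, 0.26 and 0.23). Astroglial markers summed to 17511 and 9774 CPM in Tshz1/Pbx3 cells, 4276 and 4537 CPM in the neuroblasts and 41507 and 40043 CPM in barcodes with at least 2 Aqp4 UMIs and no Gad1, Gad2 or Pdgfra. Of 10 astroglial markers 8 were lower in the neuroblasts than in Tshz1/Pbx3 cells, none of them with thinned cells. Their part in the Id values was not tested.

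Early response genes, which rise in active neurons and also during dissociation, differed in both directions. Of 16 tested, 4 were higher and 2 lower than in CGE-like cells, 2 higher and 2 lower than in restricted CGE-like cells, and 2 higher and 7 lower than in Tshz1/Pbx3 cells. Fosb was at 47.8 and 51.6 CPM in the Sp8 neuroblasts, 120.1 and 113 CPM in CGE-like cells, 116 and 126 CPM in restricted CGE-like cells and 238 and 183 CPM in Tshz1/Pbx3 cells. It was lower by −1.10, −1.22 and −1.93, with adjusted p = 4.8e-05, 0.00107 and 3.49e-07, and not called with thinned cells (adjusted p = 0.56, 0.76 and 0.12). Fos was called against Tshz1/Pbx3 cells (404 and 312 CPM against 1369 and 883 CPM, −1.52 ± 0.11, adjusted p = 5.52e-09; with thinned cells −0.71, adjusted p = 0.17).

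Among genes outside the lists, those with the largest differences above CGE-like cells were Cacng5, Parm1, Mfng, Apobec3, Mfap4, Fam210b, Map3k20, Bbc3, Mcub and Mdk, in that order. Without neuroblast replicate 2 Mfap4 was not called (1.62, adjusted p = 0.061), and with thinned cells Mcub was not (2.34, adjusted p = 0.191). Parm1, a mucin-like membrane protein, was at 75.8 and 113 CPM in the Sp8 neuroblasts, 17.4 and 28.4 CPM in CGE-like cells and 9.8 and 11.8 CPM in Tshz1/Pbx3 cells. The ranges did not overlap, and the differences were 2.15 ± 0.19 (adjusted p = 1.21e-08; with thinned cells 1.36, adjusted p = 0.15) and 3.26 ± 0.34 (adjusted p = 6.3e-07). Cacng5, an AMPA receptor auxiliary subunit of the TARP family, was at 30.1 and 43 CPM against 4.6 and 10.7 CPM in CGE-like cells (2.33 ± 0.31, adjusted p = 6.87e-06), and too low to be tested with thinned cells. Map3k20, a stress-activated MAP kinase kinase kinase, was at 75.8 and 89.4 CPM against 25 and 29.8 CPM (1.71 ± 0.17, adjusted p = 1.73e-07). Mdk, the growth factor midkine, was at 404 and 381 CPM against 168 and 161 CPM in CGE-like cells and 121 and 77.5 CPM in restricted CGE-like cells. Its differences were 1.38 ± 0.14 (adjusted p = 1.69e-07) and 2.02 ± 0.23 (adjusted p = 2.84e-06). In Tshz1/Pbx3 cells Mdk was at 206 and 426 CPM and did not pass (0.34, adjusted p = 0.241), although it did with thinned cells (1.56, adjusted p = 0.00153).

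The genes furthest below CGE-like cells included Pf4, Hist1h3c, Ccnf, Aspm, Kif11, Ccna2, Tuba1c, Cdk1 and Cdca2. Of these, all but Pf4 and Tuba1c belong to histones and the mitotic cycle, which the rule removed. With thinned cells none of the 8 other than Pf4 was called, and Pf4 was too low to be tested. Pf4, a macrophage chemokine gene, had no UMI in the neuroblasts and lay at 241 and 2.67 CPM in restricted CGE-like cells. Against a floor of 3 counts over the neuroblasts it was at least 96.2-fold lower there and at least 18.7-fold lower than in CGE-like cells. Microglial markers summed to 780 and 8.01 CPM in restricted CGE-like cells and 11.4 and 6.88 CPM in the neuroblasts, so replicate 1 of the restricted class carried these counts. Without restricted CGE-like replicate 1 Pf4 was not called (adjusted p = 0.4), and without either neuroblast replicate it was not called against CGE-like cells (adjusted p = 0.096 and 0.083). Among genes below restricted CGE-like cells, Elmod1, an ARF GTPase-activating protein, was at 7.27 and 11.2 CPM against 121 and 142 CPM (−3.74 ± 0.29, adjusted p = 3.67e-09). Sorcs3, a sortilin family receptor, was at 5.19 and 1.72 CPM against 55 and 29.4 CPM (−3.67 ± 0.52, adjusted p = 4.47e-05). The call of Elmod1 held with thinned cells, in which Sorcs3 was too low to be tested.

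The genes furthest above Tshz1/Pbx3 cells were Parm1, Ube2c, Cdca7l, Mob3b and Zic1, and those furthest below were Enpp6, Bmp4, Serpinf1, Uaca and Foxp4. Zic1 was not called without neuroblast replicate 2 (1.58, adjusted p = 0.057), and with thinned cells neither Zic1 (adjusted p = 0.157) nor Ube2c (0.64, adjusted p = 0.633) nor Cdca7l (adjusted p = 0.218) was. Foxp4, a forkhead factor, was at 5.19 and 4.3 CPM in the Sp8 neuroblasts and 51.4 and 60.6 CPM there (−3.48 ± 0.45, adjusted p = 1.21e-05), and was called with thinned cells too. Serpinf1 was at 4.15 and 1.72 CPM against 61.2 and 32 CPM (−3.85 ± 0.52, adjusted p = 2.19e-05), and too low to be tested with thinned cells. Bmp4, a ligand of the BMP pathway, was at 0 and 2.58 CPM against 41.6 and 13.5 CPM, a call lost without Tshz1/Pbx3 replicate 1 (−3.01, adjusted p = 0.11). Enpp6, an enzyme of new oligodendrocytes, had no UMI in the neuroblasts and was at 39.2 and 1.68 CPM there. Its call was lost without either neuroblast replicate (adjusted p = 0.068 and 0.17) and without Tshz1/Pbx3 replicate 1 (adjusted p = 0.52). Mob3b was at 62.3 and 48.1 CPM against 7.35 and 11.8 CPM (2.58 ± 0.42, adjusted p = 0.000247; with thinned cells 0.64, adjusted p = 0.87). Tiam2, a Rac guanine nucleotide exchange factor, was at 443 and 421 CPM in the neuroblasts against 171 and 143 CPM (1.60 ± 0.15, adjusted p = 1.37e-07) and was called with thinned cells.

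Against the rest of the sorted cells the genes furthest above, outside the lists, were St18, Parm1, Tiam2, Rgs8, Mob3b, Arl4d, S100a10, Mcub, Trpc4 and Mir124a-1hg. St18, a zinc-finger factor, was at 69.6 and 78.2 CPM in the Sp8 neuroblasts and 2.37 and 3.09 CPM in the rest (4.96 ± 0.22, adjusted p = 7.14e-15). Tiam2 was at 20.6 and 23.3 CPM in the rest (4.50 ± 0.10, adjusted p = 1.29e-20). Of the bulb transcription factors 15 of 20, and of the immature neuron genes 16 of 16, were higher than in the rest.

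Markers of other cell types were low in the Sp8 neuroblasts but not at 0. Astroglial markers were the highest of them, as given above. Glutamatergic neuron markers summed to 92.4 and 99.7 CPM, Cajal-Retzius markers to 129 and 126 CPM, and vascular and blood markers to 8.31 and 6.88 CPM. Among microglial markers 3 and 7 of 10 had no UMI.

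Single cells were compared after each was thinned to 2000 UMIs, which left 149 and 169 Sp8 neuroblasts and left out 20 and 12 shallower ones. Shares in barcodes with at least 2 Pdgfra UMIs and no Gad1 or Gad2 serve as the background. These resemble oligodendrocyte precursors and had medians of 8686 and 9414 UMIs before thinning. They are a cell type with transcripts of its own, so their shares do not measure stray transcripts. Dlx1 had a UMI in 70.5% and 76.3% of the neuroblasts against 1.67% and 2.01% of the background. It was also found in 64.1% and 66.2% of restricted CGE-like and 57.4% and 43.0% of Tshz1/Pbx3 cells. Meis2 was found in 92.6% and 90.5% of the neuroblasts against 47.7% and 46.0% of the background. It reached 65.4% and 50.0% of restricted CGE-like and 90.2% and 92.4% of Tshz1/Pbx3 cells. Dcx was found in 69.8% and 75.7% of the neuroblasts against 24.5% and 27.4% of the background, and in 64.1% and 77.9% of restricted CGE-like cells. Etv1 was found in 37.6% and 37.9% of the neuroblasts against 19.1% and 21.8% of the background. It was also found in 32.0% and 37.6% of CGE-like, 20.5% and 22.1% of restricted CGE-like and 31.1% and 30.4% of Tshz1/Pbx3 cells. Pax6 was found in 32.9% and 31.4% of the neuroblasts. Pax6 had a UMI in 33.3% and 26.7% of the astroglial reference barcodes as well, so it did not set the neuroblasts apart from these. Erbb4 was found in 4.03% and 6.51% of the neuroblasts, below the 15.1% and 16.6% of the background and the 30.8% and 35.3% of restricted CGE-like cells.

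Genes that mark subtypes of mature bulb interneurons were found in few of the Sp8 neuroblasts. Of 20 such genes 8 were frequent enough to be tested against restricted CGE-like cells. Of these 8, 0 were higher and 1 lower (median −0.06), beside 3.06% and 3.84% of all genes. The 10 tested against CGE-like cells had 2 higher and 3 lower (median −0.47). The furthest below was Gng4, a G protein subunit of granule cells, at 2.08 and 1.72 CPM against 9.71 and 13.3 CPM (−2.52, adjusted p = 0.00689), not called without either neuroblast replicate (adjusted p = 0.085 and 0.17) or without CGE-like replicate 2 (−2.16, adjusted p = 0.12). Calb2, the calretinin of granule and periglomerular cells, was at 60.2 and 101 CPM, and before thinning it had a UMI in 18 and 26 of the neuroblasts (10.7% and 14.4%). After thinning the shares were 3.85% and 7.35% in restricted CGE-like cells and 2.03% and 1.90% in the background. In the neuroblasts they were 6.71% (exact interval 3.27% to 11.996%) and 9.47% (5.51% to 14.9%). Of its UMIs 86.2% and 81.4% lay in 10 cells of each library, with up to 24 and 29 in 1 cell, so calretinin transcripts were concentrated in few cells. Summed over cells, Calb2 was higher than in Tshz1/Pbx3 cells (29.4 and 10.1 CPM; 2.31 ± 0.38, adjusted p = 0.000222; with thinned cells 1.63, adjusted p = 0.42). It was also higher than in CGE-like cells (37.3 and 46.8 CPM; 1.07, adjusted p = 0.000558), but not called there without neuroblast replicate 2 (0.60, adjusted p = 0.2) or with thinned cells (0.80, adjusted p = 0.43).

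Synpr, the synaptic vesicle protein synaptoporin of granule cells, was found in 17.4% and 18.9% of the thinned neuroblasts against 0.117% and 0.288% of the background. Synpr was also found in 8.97% and 17.6% of restricted CGE-like cells and in 14.8% and 1.27% of Tshz1/Pbx3 cells. Its summed level was 70.6 and 88.5 CPM, against 45 and 51.6 CPM in CGE-like cells (0.84 ± 0.21, adjusted p = 0.00553; without neuroblast replicate 2 0.73, adjusted p = 0.17; with thinned cells −0.03). Lmo4 was found in 26.2% and 21.3%, below the 44.2% and 44.1% of the background, so its presence is no mark of the neuroblasts. Npy was found in 2.01% and 4.14%, likewise no more than the 4.17% and 4.46% there. Th and Slc6a3, which make and take up dopamine in periglomerular cells, had no UMI in any Sp8 neuroblast of either library, and neither did Vip, Crhr1 or Pvalb. After thinning, 0 of 149 and 0 of 169 allow a share of cells with a UMI of up to 2.01% and 1.78%, from 3 counts. This does not limit the cells that express such a gene, since a low transcript can give no UMI at this depth. Reln showed that 1 cell can carry a sum: 26 of its 30 UMIs in replicate 1 were in a single cell.

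**Figure D4:**
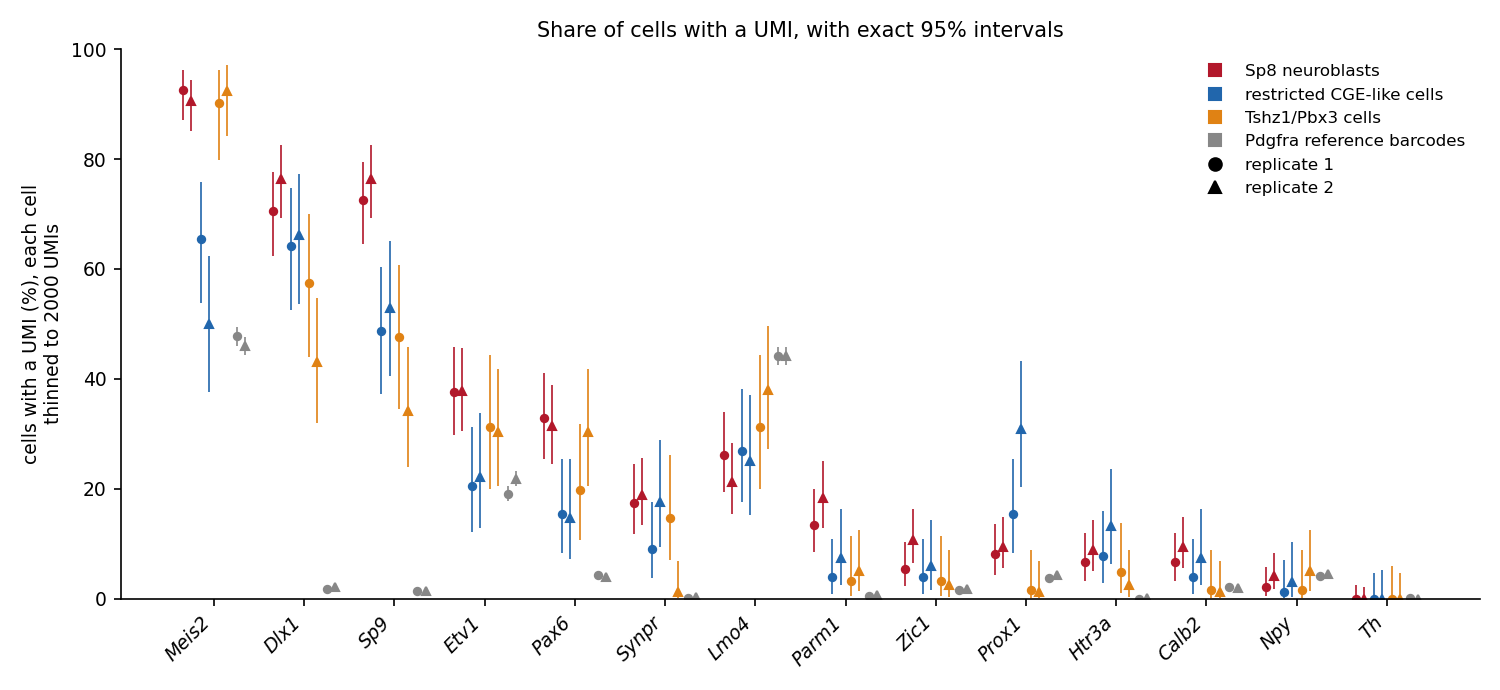
Share of cells, in percent, with at least 1 UMI of each gene after thinning to 2000 UMIs, in Sp8 neuroblasts, restricted CGE-like cells, Tshz1/Pbx3 cells and Pdgfra reference barcodes, with exact 95% intervals for counting error. Dlx1 stands at 70.5% and 76.3% of the neuroblasts, 64.1% and 66.2% of restricted CGE-like cells and 1.67% and 2.01% of the reference. Calb2 stands at 6.71% and 9.47%, 3.85% and 7.35%, and 2.03% and 1.90% of the same classes. Th stands at 0 in the neuroblasts.

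The genes that varied most among the Sp8 neuroblasts were described by the Fano factor, the variance over the mean of the thinned counts, which had a median of 1.01 and 1.02 over 4686 genes. By the lower of both libraries' values, Malat1, a nuclear non-coding RNA, came first (13.1 and 17.4), followed by Apoe and Fabp7, with Tmsb4x, an actin-binding peptide gene, after them (9.37 and 9.91). Fabp7, a lipid-binding protein of radial glia and astrocytes, had Fano factors of 9.70 and 14.8. Apoe, a glial apolipoprotein, had 9.86 and 12.5. A median neuroblast held 7 UMIs of Fabp7 before thinning, while the highest held 282 and 377, and 10 cells in each library held 46.4% and 57.1% of all its UMIs. For Apoe 10 cells held 69.0% and 70.2%. The transcripts of both genes were thus spread unevenly, and 10 cells of each library carried most of those of Apoe. Ccnd2 had Fano factors of 3.17 and 3.46. It was found in 90.6% and 94.1% of the thinned neuroblasts, against 40.0% and 44.8% of the background, 77.6% and 78.6% of the astroglial reference barcodes and 95.8% and 96.4% of dividing GABAergic cells. Epha5, an Eph receptor, had 3.01 and 3.93.

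Within the Sp8 neuroblasts, levels were also read by the number of Sp8 UMIs in a cell. In cells with 1 Sp8 UMI, Dlx1 was at 771 and 575 CPM, in those with 2 at 688 and 787 CPM, and in those with 3 or more at 773 and 824 CPM. For Sp9 the values were 671 and 565, 771 and 696, and 725 and 698 CPM. Ccnd2 was at 2497 and 3187, 3284 and 3414, and 3372 and 3568 CPM. Fabp7 was at 2370 and 5465 CPM in cells with 1 Sp8 UMI, 1916 and 1245 CPM with 2, and 2465 and 1560 CPM with 3 or more. Just outside the limit, 410 and 351 barcodes met every condition but had no Sp8 UMI. These held Dlx1 at 94.97 and 97.7 CPM, Sp9 at 109 and 114 CPM, Tubb3 at 1044 and 1004 CPM and Fabp7 at 12242 and 11259 CPM. Their oligodendrocyte lineage gene Olig1 was at 571 and 561 CPM, against 168 and 199 CPM in neuroblasts with 1 Sp8 UMI. A further 41 and 31 barcodes missed the rule only by 1 UMI of Adarb2, and they held Dlx1 at 754 and 716 CPM, Sp9 at 547 and 731 CPM and Ccnd2 at 2215 and 2352 CPM. Their Erbb4 was at 42.1 and 59.7 CPM, between the neuroblasts and CGE-like cells. These values describe the edges of the rule and were not tested.

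**Figure D5:**
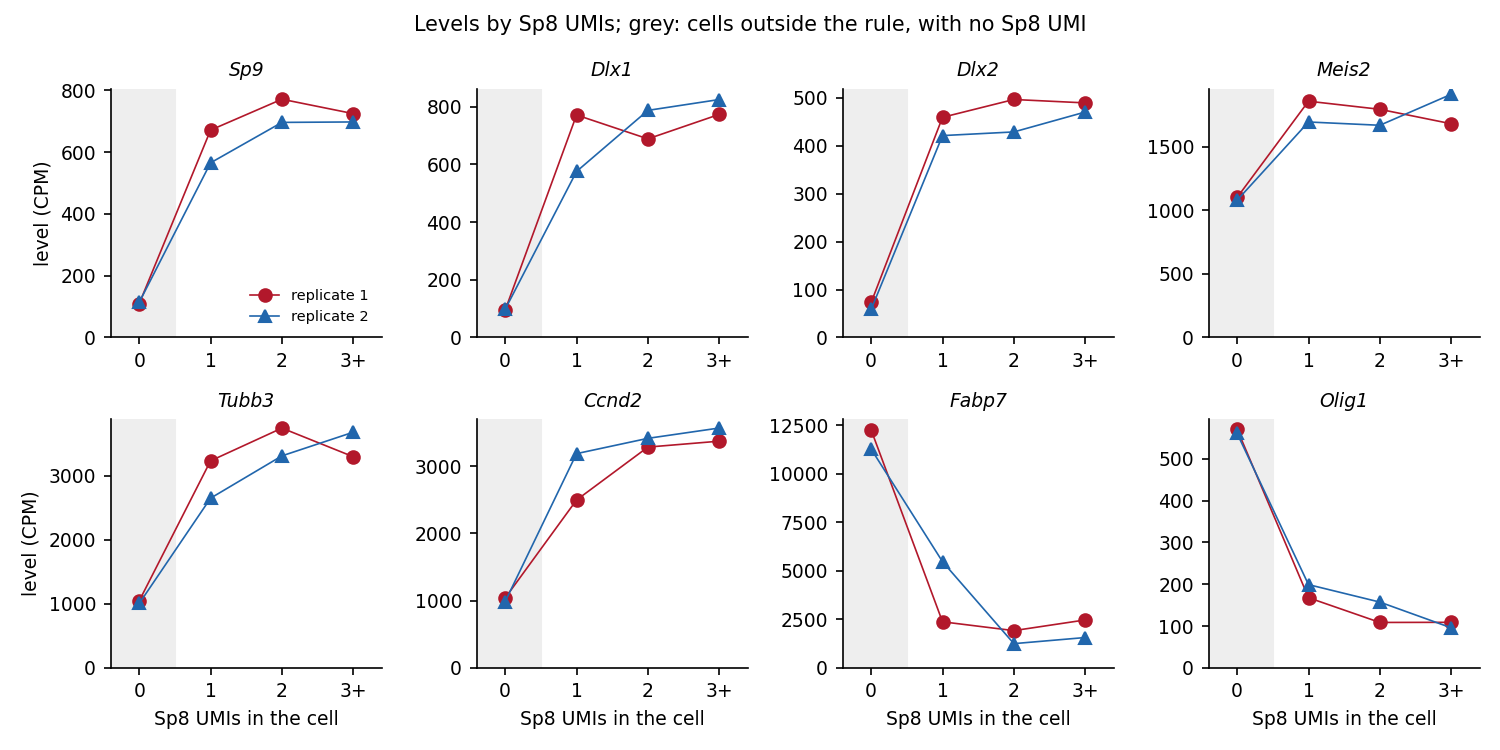
Levels in CPM of 8 genes in barcodes with 0 (outside the rule, grey), 1, 2 and 3 or more Sp8 UMIs, with a circle for replicate 1 and a triangle for replicate 2. Dlx1 lies between 575 and 824 CPM in the 3 groups of Sp8 neuroblasts and at 94.97 and 97.7 CPM in the barcodes with no Sp8 UMI.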

How the data were processed

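The deposited matrices hold raw UMI counts per gene and barcode for 32285 genes, made with Cell Ranger 6.0.2, per the file headers. Per the submitters' processing notes, the build was mm10, and Seurat 4.1.0 and R 4.1.0 are listed without saying for which step. No source used here names the annotation release. Coordinates are those of GENCODE M21 on GRCm38, the same build.

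The cells, lists and tests were chosen with earlier results of these data known. Values are given for the members of a list that differed most from CGE-like cells, and outside the lists for the 10 furthest above and below CGE-like cells, the 5 against Tshz1/Pbx3 cells and the 10 highest against the rest, with at least 20 CPM in the higher class. Other genes were named for their role after their values were seen. Some genes that these choices cover are not reported here.

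The counts of each class were added up within a library, and the 10 sums, with 4 residual degrees of freedom, entered edgeR 4.0.16 in R 4.3.3 (TMM, filterByExpr, quasi-likelihood test, library block, Benjamini-Hochberg adjustment). A fit with restricted CGE-like cells in place of the CGE-like class gave the restricted comparison. The fit was tested on simulated data. Doublets were marked with Scrublet in scanpy 1.11.5 at an expected 10%. Python 3.11.15, numpy 2.4.6, scipy 1.17.1, pandas 2.3.3 and matplotlib 3.10.9 were used. Alternatives were RLE size factors, DESeq2 1.42.0, no filter on low counts, no library block, doublets left out, at least 2 Sp8 UMIs, thinning to 2000 UMIs before the rule, and each sum left out in turn.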

Additional observations from a re-analysis of the deposited data

How the results depend on the processing

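Against CGE-like cells 2052 genes were called. The count was 715 with restricted CGE-like cells in their place (a setting added after the data had been seen), 400 with cells thinned to 2000 UMIs before the rule, and 802 to 1653 without 1 of the sums. Against restricted CGE-like cells 715 genes were called, 251 with thinned cells and 286 to 411 without 1 of the sums. Thinning raised the share of calls that were higher there from 44.3% to 56.6%. Against Tshz1/Pbx3 cells 1127 were called, 78 with thinned cells (62.8% of them higher, against 43.6%) and 623 to 959 without 1 of the sums. Against the rest 5725 were called, 2256 with thinned cells and 3674 to 4882 without 1 of the sums. The rule was applied to the thinned counts, so cells could leave a class or enter it by losing a UMI. Of the Sp8 neuroblasts that were thinned, 57.0% and 58.0% kept a UMI of Sp8. Fewer cells meet the rule after thinning, and a sum less leaves fewer degrees of freedom. How much depth, membership and the number of cells or sums each change the counts was not tested. Calls that could be tested again with thinned cells changed sign for 270 of 1654, 18 of 592, 178 of 930 and 163 of 3614 genes. These are the 4 comparisons in the order above, and 9, 0, 1 and 0 of the genes were called in the other direction. Over all list members and other named genes, 60 called differences changed sign under an alternative, 45 of them with thinned cells; the cause was not tested. Of these 60, only Tyms and Ube2c against CGE-like cells were also called in the other direction (2.28 and 1.43 with thinned cells, from −0.83 and −3.14). Among genes the text names, those against CGE-like cells became Dpysl3 −0.0352, Synpr −0.0299, Lmo4 0.14, Htr3a −0.31, Grin3a 0.17, Kcnd2 0.50, Olig1 0.48, Cdk1 0.43, Cdca2 0.17 and Tuba1c 6.93 with thinned cells. Against Tshz1/Pbx3 cells these were Lmo4 0.0560, Trpc4 −0.0727, Npy 1.43 and Gria3 7.51, and Npy ranged from −2.96 to 0.96 without 1 of that class's sums. Against the rest they were Erbb4 0.21, Tyms 0.14 and Ube2c 0.27. These are fitted log2 differences of low counts; those above 2 with no call give no size. The share of barcodes that were Sp8 neuroblasts, 1.58%, was 1.83% at a mitochondrial limit of 5%, 1.04% with at least 2 Sp8 UMIs, 1.34% with at least 2 Gad1 or Gad2 UMIs, 1.37% with thinned cells, and 1.51% to 1.65% in the single libraries. Replicates 1 and 2 form the block of the fit because all classes of 1 library share its sort. Without the replicate block the counts were 1418, 559, 877 and 5231 in the 4 comparisons. RLE size factors gave 2066, 716, 1127 and 5720 calls and DESeq2 1751, 691, 1178 and 5000. With no filter on low counts there were 1950, 774, 1141 and 5570, and without doublets 1474, 699, 1296 and 5599. Depth limits genes at a few CPM: 3 counts over the neuroblasts of both libraries are the floor used, and a gene near it was not detectable rather than absent.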
